A study of Homo sapiens with 7 samples.

Results

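A set of 40 genes of the cell division cycle and of DNA replication was followed in Huh7 cells, a human hepatocellular carcinoma line that divides continuously in culture. The genes were taken by gene symbol, and each was read from its probe with the highest mean deposited intensity over the 7 arrays. All 40 were found among the 18336 named genes on the array, and all 40 lay above the dim level, the 30th percentile of mean log2 intensity (an intensity of 265), as did 12835 of the 18336. The 40 genes comprise 9 regulators of G1 and of the G1/S step, 2 CDK inhibitors, 9 genes of origin licensing and the replication fork, 3 of deoxynucleotide synthesis, 10 of S phase, G2 and mitotic entry, and 7 of the spindle checkpoint, chromosome segregation and mitotic exit.

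The series measured total RNA on 7 one-colour Cy5 arrays, 1 for each condition. One array held untreated cells, labelled 0 h, and 6 held cells treated with 10 IU/ml of IFN-α (a type I interferon) or 20 ng/ml of IFN-λ1 (also called IL29) or IFN-λ4 (type III interferons), each for 6 h and for 16 h. All 7 arrays used the same cell line, whose cells were left overnight after seeding before any interferon was added. No condition was repeated and no untreated culture was labelled 6 h or 16 h. Treatment and time in culture therefore cannot be told apart in any comparison with the untreated array. Time with interferon and time in culture likewise cannot be told apart in any comparison of 16 h with 6 h. The p-values below measure only the spread between the arrays entered. The doses of IFN-α and of the IFN-λ proteins are in different units and are not matched.

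Progress through the cycle is driven by cyclin-dependent kinases (CDKs), each active only with a cyclin partner and held back by inhibitors such as p21 and p27. D-type cyclins with CDK4 or CDK6, then cyclin E with CDK2, release E2F factors, which switch on genes for licensing and copying DNA. Genes of G2 and mitosis are switched on later, in part by FOXM1 and by the MuvB complexes, and type I interferons are known to slow the growth of many cell types.

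The arrays reported the interferon response and bright hepatocyte markers. Each of 6 interferon response genes was over 2-fold higher than untreated on all 6 treated arrays, and 5 of them passed the treated against untreated test. The 9 hepatocyte and hepatoma markers measured had intensities of 20405 to 335718 in untreated cells, whereas the highest of 6 fibroblast and stellate markers reached 2256 and the highest of 6 endothelial markers 2883. Of 7 leukocyte markers 2, PTPRC and CD3E, lay at or under the dim level. The others were above it, with CD3D at 10003, LYZ at 3975, CD14 at 3319, ITGAM at 687 and MS4A1 at 392 in untreated cells. Array medians ran from 494 on the IFN-α 6 h array and 509 on the IFN-λ4 6 h array to 633 on the IFN-α 16 h array, with 609 in untreated cells. Intensities were therefore scaled by quantile normalisation, the setting used unless stated, and again by centring each array on its median. Intensities printed for single genes are the deposited values, before either scaling. Log2 differences, folds, tests and counts of genes whose arrays lay apart use the scaled values. The deposited intensities can differ from these in size and in order.

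No gene of the 40 passed an adjusted p of 0.05 in any of 4 limma comparisons, each fitted over all 12835 genes with Benjamini-Hochberg adjustment. For treated against untreated cells 0 of 40 passed against 0.117% of all genes, for 16 h against 6 h 0 against 0.0%, for the IFN-λ arrays against the IFN-α arrays 0 against 2.15%, and for IFN-λ4 against IFN-λ1 0 against 0.0%. At an unadjusted p under 0.05, 2 of 40 members were found for treated against untreated (2.0% of all genes), 5 for 16 h against 6 h (15.1%), 4 for IFN-λ against IFN-α (19.9%) and 1 for IFN-λ4 against IFN-λ1 (2.39%). Under median centring the count for treated against untreated was 0 of 40 (1.86% of all genes). On simulated arrays with the same layout the fit recovered 53%, 88%, 86% and 59% of 2-fold changes in these 4 comparisons, in that order. It also called 6, 14, 19 and 21 genes that had not been shifted. The simulated noise of all 4 came from the spread of the 16 h against 6 h fit, whose median residual SD was 0.2041. That of treated against untreated was 0.2719, so 53% cannot be taken as the recovery on the real arrays. The noise was also drawn independently and with the same SD on every array. On the real arrays the SD of the 16 h against 6 h fit was 0.0988 without both IFN-α arrays, so the spread was uneven. The other 3 percentages thus cannot be taken as the real recovery either. As in any bulk sample, fewer cells in a phase and less RNA of a gene per cell cannot be told apart.

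Single arrays showed few differences of 2-fold, a size used here in place of a test because each condition had 1 array. On the IFN-α 6 h array only CCND3 was 2-fold higher (3.93% of all genes) and no member was 2-fold lower (2.84%). On the IFN-α 16 h array no member was 2-fold higher (5.79%), and CCND3 and RRM1 were 2-fold lower (3.46%). The IFN-λ1 6 h array had none higher (1.07%) or lower (0.662%), and the IFN-λ1 16 h array had none higher (0.958%) and RRM2 alone lower (0.234%). With IFN-λ4 no member was 2-fold higher or lower at 6 h (2.05% and 1.24%) or at 16 h (0.989% and 0.195%). Median centring called the same members on these 6 arrays.

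**Figure D1:**
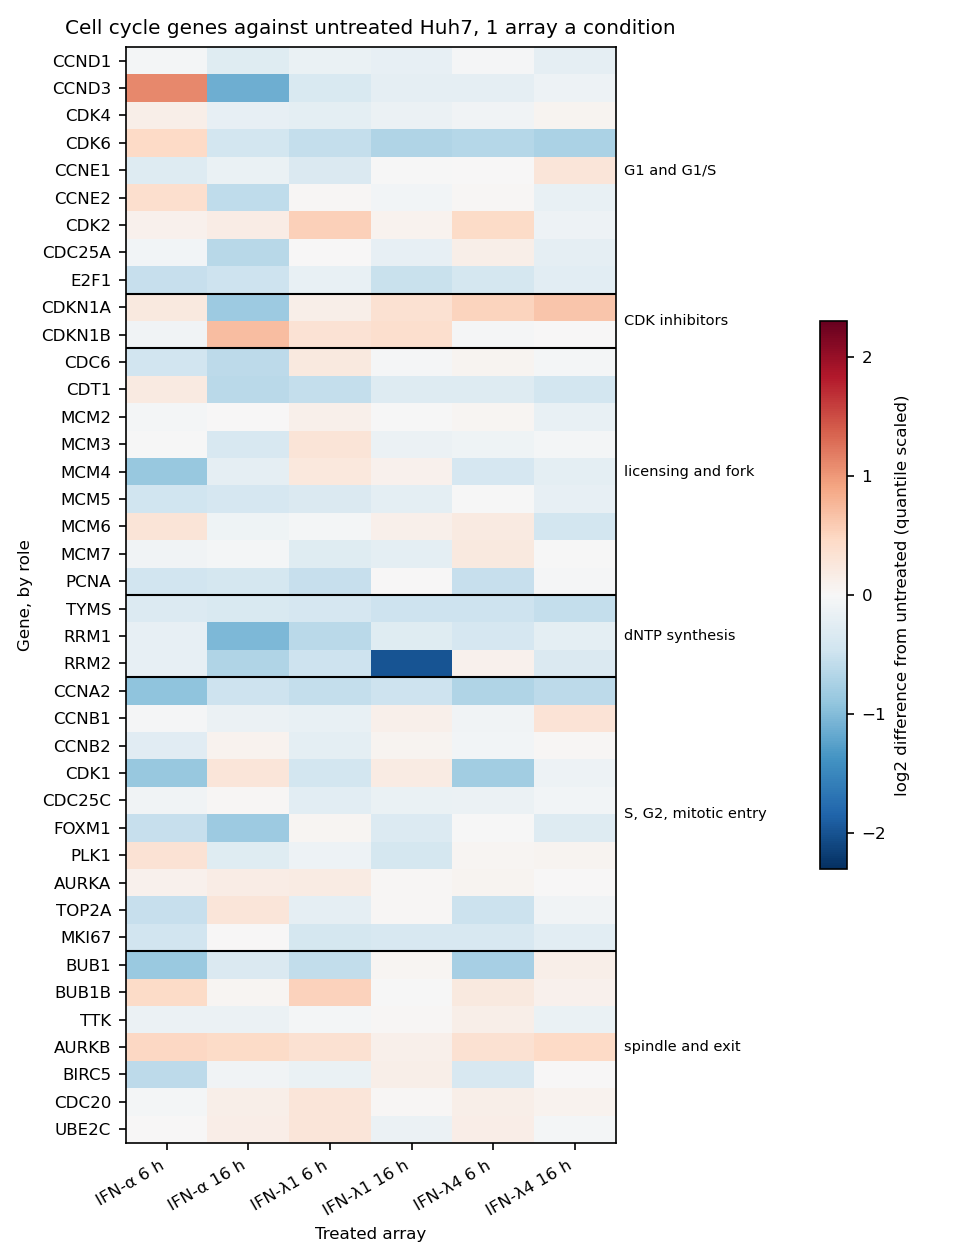
Log2 difference of each of the 40 genes (rows, grouped by role) from the untreated array on each of the 6 treated arrays (columns), quantile scaled, with red for higher and blue for lower. Most cells are pale, and the darkest are CCND3 on both IFN-α arrays, RRM1 on the IFN-α 16 h array and RRM2 on the IFN-λ1 16 h array.

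Taken as a list, the 40 genes stayed near the level of all genes. Their median log2 difference from untreated was -0.08 at 6 h and -0.20 at 16 h with IFN-α, -0.16 and -0.05 for IFN-λ1, and -0.02 and -0.09 for IFN-λ4, beside medians of all 12835 genes of 0.01, -0.08, 0.00, -0.03, 0.03 and -0.01 on the same arrays. The sign of these list medians depended on the scaling on all but the IFN-α 16 h and IFN-λ1 6 h arrays, where it was negative under both. Under median centring the members' medians became 0.28 and -0.33 for IFN-α, -0.07 and 0.05 for IFN-λ1, and 0.27 and 0.06 for IFN-λ4, while those of all genes became 0.22, -0.17, 0.05, 0.06, 0.22 and 0.09. Of the 240 differences of single members from untreated, 51 changed sign between the scalings, none of them over 0.39 in size under quantile scaling. Of these, 14 were on the IFN-α 6 h array and 11 on each IFN-λ4 array. Quantile-scaled differences of up to that size from untreated are given below as values, and their sign is not a result.

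**Figure D2:**
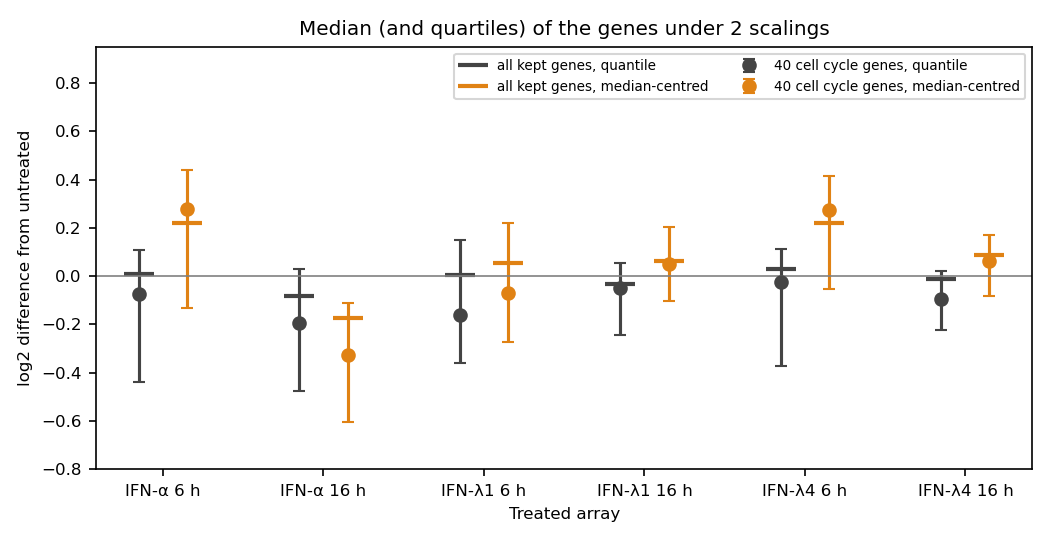
Median log2 difference from untreated of the 40 cell cycle genes (points, with bars from the lower to the upper quartile of the genes, not an error) and of all 12835 kept genes (dashes) on each treated array, under quantile scaling (grey) and median centring (orange). On the IFN-α 6 h and IFN-λ4 6 h arrays the members' median moves from just below 0 to above 0.2 with the scaling, together with the median of all genes.

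Among the regulators of G1, CCND3, which encodes cyclin D3, had opposite differences on the 2 IFN-α arrays. Its intensity was 3712 untreated, then 7812, 2983 and 3108 at 6 h with IFN-α, IFN-λ1 and IFN-λ4, and 1744, 3184 and 3404 at 16 h in the same order. The IFN-α arrays held both the highest and the lowest of the 7 values, and the other 5 lay close together. Against untreated, CCND3 was 1.10 higher on the log2 scale at 6 h and -1.12 at 16 h with IFN-α, and between -0.35 and -0.12 on the 4 IFN-λ arrays. From 6 h to 16 h it differed by -2.22 with IFN-α, by 0.15 with IFN-λ1 and by 0.09 with IFN-λ4, with the same signs under median centring. For IFN-λ against IFN-α the fitted difference was -0.21 ± 0.44 (SE, adjusted p = 0.838 by limma), which became 0.96 without the IFN-α 6 h array (adjusted p = 0.0185 by limma) and -1.38 without the IFN-α 16 h array (adjusted p = 0.0149 by limma). In such fits the lone IFN-α array is assumed to vary like the IFN-λ arrays, which supply the whole spread, and 14.9% and 4.03% of all genes passed in them, in that order.

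CDK6, a kinase partner of the D cyclins, was also higher with IFN-α at 6 h. Its intensity was 3101 untreated, 4045, 2152 and 1824 at 6 h with IFN-α, IFN-λ1 and IFN-λ4, and 2287, 1860.0 and 1831 at 16 h. Both IFN-α values lay above all 4 IFN-λ values, and all treated arrays but the IFN-α 6 h array lay under the untreated one. The log2 difference of IFN-λ from IFN-α was -0.68 ± 0.21 (SE, limma, 4 against 2 arrays with time as a block, adjusted p = 0.129), and -1.07 without the IFN-α 16 h array (adjusted p = 0.0317 by limma, with the spread taken from the IFN-λ arrays alone). A second CDK6 probe read 92 to 169, under the dim level.

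CCND1, which encodes cyclin D1, was lower at 16 h than at 6 h with each interferon. Its intensity was 70376 untreated, 72057, 67824 and 76273 at 6 h, and 54032, 61394 and 61184 at 16 h with IFN-α, IFN-λ1 and IFN-λ4. All 3 values at 16 h lay under all 3 values at 6 h, although the mean difference was small, -0.15 ± 0.13 (SE, adjusted p = 0.627 by limma). CDC25A, the phosphatase that activates CDK2, had the same order: 12244 untreated, 12141, 12847 and 14315 at 6 h, and 7548, 10742 and 10689 at 16 h. Its mean difference of 16 h from 6 h was -0.37 ± 0.16 (SE, adjusted p = 0.336 by limma), and its dimmer second probe read the other way, by 0.03 with IFN-α, 0.40 with IFN-λ1 and 0.46 with IFN-λ4.

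The other regulators of this step had no common direction. E2F1, a transcription factor of S-phase genes, was below untreated on all 6 treated arrays under both scalings, with an intensity of 6578 untreated, 4435, 5954 and 4874 at 6 h and 4517, 4552 and 5507 at 16 h. Its mean difference from untreated was -0.39 ± 0.24 (SE, adjusted p = 0.999 by limma). CCNE2 (cyclin E2) differed from untreated by 0.38 at 6 h and -0.58 at 16 h with IFN-α, by 0.02 and -0.07 with IFN-λ1, and by 0.02 and -0.17 with IFN-λ4. Its dimmer second probe was higher at 16 h than at 6 h, by 0.06 with IFN-α, 0.41 with IFN-λ1 and 0.74 with IFN-λ4. CDK4, a kinase partner of the D cyclins, differed by 0.13, -0.23 and -0.08 at 6 h and by -0.19, -0.13 and 0.07 at 16 h with IFN-α, IFN-λ1 and IFN-λ4, and median centring changed the sign on the IFN-λ4 6 h array (0.27) and the IFN-λ1 16 h array (0.01). A second bright CDK4 probe read -0.32, -0.03 and 0.08 at 6 h and 0.13, -0.28 and 0.09 at 16 h, in the same order. CCNE1 (cyclin E1) lay within -0.33 and 0.27, and CDK2, the partner of cyclin E, lay within -0.11 and 0.55. CDK2 was higher at 6 h than at 16 h with both IFN-λ proteins, at 35652 and 34236 against 24649 and 21878.

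The CDK inhibitor genes CDKN1A (p21) and CDKN1B (p27) differed in direction on the IFN-α 16 h array. CDKN1A had an intensity of 1676 untreated, 1738, 1869 and 2232 at 6 h, and 985, 2066 and 2552 at 16 h with IFN-α, IFN-λ1 and IFN-λ4. The IFN-α 16 h array was the only one under the untreated value, and the IFN-λ4 arrays held the 2 highest values. For IFN-λ against IFN-α the log2 difference of CDKN1A was 0.71 ± 0.29 (SE, adjusted p = 0.221 by limma), and 1.32 without the IFN-α 6 h array (adjusted p = 0.0186 by limma, with the spread taken from the IFN-λ arrays alone, a fit in which 14.9% of all genes passed). Its second probe disagreed: on the IFN-α 16 h array it was 1.18 above untreated, where the first was -0.83, and from 6 h to 16 h with IFN-α the 2 probes differed by 1.16 and -1.06. CDKN1B was highest on the IFN-α 16 h array, at 19763 against 13129 untreated, with 12840.4, 17318 and 13604 at 6 h and 17063 and 13253 at 16 h with IFN-λ1 and IFN-λ4.

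Origin licensing loads the MCM2 to MCM7 helicase onto DNA with the help of CDC6 and CDT1. CDC6 separated the IFN-α arrays from the IFN-λ arrays. It had an intensity of 3896 untreated, 2678, 4679.5 and 3936 at 6 h, and 2535, 3759 and 3772 at 16 h with IFN-α, IFN-λ1 and IFN-λ4. Both IFN-α values lay under all others, and the log2 difference of IFN-λ from IFN-α was 0.57 ± 0.16 (SE, adjusted p = 0.102 by limma), 0.64 ± 0.18 under median centring (adjusted p = 0.119). CDT1 was at or above untreated only on the IFN-α 6 h array (0.20), and from -0.61 to -0.29 on the other 5.

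The helicase subunits did not share 1 pattern. MCM5 lay from -0.46 to -0.01 relative to untreated, with both IFN-α arrays under all 4 IFN-λ arrays, but under median centring it was 0.27 on the IFN-λ4 6 h array and the 2 groups overlapped. MCM4 read -0.87 on the IFN-α 6 h array and from -0.38 to 0.25 on the rest, and MCM2, MCM3 and MCM6 each stayed within -0.42 and 0.30. MCM7 differed by -0.07, -0.28 and 0.23 at 6 h and by -0.05, -0.23 and -0.01 at 16 h with IFN-α, IFN-λ1 and IFN-λ4. PCNA, the sliding clamp of the replication fork, was 107165 untreated, 82974, 77515 and 80227 at 6 h, and 70121, 107827 and 104383 at 16 h with IFN-α, IFN-λ1 and IFN-λ4. With both IFN-λ proteins it was thus near the untreated value at 16 h and lower at 6 h, and with IFN-α it was lower at both times. Its small quantile-scaled difference of 16 h from 6 h with IFN-α, 0.03, became -0.60 under median centring.

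The 3 genes of deoxynucleotide synthesis had the lowest list median of any role on 5 of the 6 treated arrays, from -0.70 to -0.34, the IFN-α 6 h array being the exception. TYMS, thymidylate synthase, had an intensity of 67079 untreated, 57511, 54981 and 52686 at 6 h, and 48017, 48901 and 46502 at 16 h, below untreated on every treated array. Its mean difference from untreated was -0.42 ± 0.16 (SE, 6 arrays against 1, adjusted p = 0.999 by limma), and under median centring the IFN-α 6 h array turned to 0.08. RRM1, the large subunit of ribonucleotide reductase, had 78928 untreated, 74273, 55111 and 66397 at 6 h, and 35499, 64730.2 and 67878 at 16 h. The IFN-α 16 h array stood alone, 2.04-fold under untreated, and without the IFN-α 6 h array the fitted difference of IFN-λ from IFN-α was 0.77 for RRM1 (adjusted p = 0.0186 by limma). That fit sets this 1 array against the IFN-λ arrays and takes its spread from them alone, and 14.9% of all genes passed in it.

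RRM2, the small subunit of the same enzyme, gave the largest difference from untreated of any member, on 1 probe and 1 array. The probe used read 54772 untreated, 51094, 41055 and 64608 at 6 h, and 30963, 13806 and 43794 at 16 h with IFN-α, IFN-λ1 and IFN-λ4. On the IFN-λ1 16 h array it was 3.96-fold under untreated. A second probe of nearly the same brightness read 49794 on that array against 52330 untreated, a log2 difference of -0.08 against -1.98 for the first. The difference of IFN-λ4 from IFN-λ1, 1.12 ± 0.28 for RRM2 (SE, adjusted p = 1.00 by limma), rests on this value. From 6 h to 16 h the second probe differed by -0.16 with IFN-α, 0.38 with IFN-λ1 and 0.49 with IFN-λ4. The probe used differed by -0.51, -1.51 and -0.44 in the same order.

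Genes that act from S phase into mitosis included the members most clearly ordered by time. CDK1, the kinase that drives entry into mitosis, had an intensity of 15674 untreated, 8739, 12388 and 9449 at 6 h with IFN-α, IFN-λ1 and IFN-λ4, and 17479, 17892 and 14728 at 16 h. All 3 values at 6 h lay under the untreated value and under all 3 at 16 h. At 16 h, 2 of the 3 arrays were above untreated and 1 below, and under median centring all 3 were above. The difference of 16 h from 6 h was 1.15 with IFN-α, 0.62 with IFN-λ1 and 0.68 with IFN-λ4, a mean of 0.81 ± 0.17 (SE, limma with interferon as a block, adjusted p = 0.189). Under median centring it was 0.64, 0.65 and 0.52. A second CDK1 probe, at 31 to 142 and so under the dim level, differed by 0.78, 1.11 and 1.23.

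TOP2A, which encodes the topoisomerase that untangles replicated chromosomes, had 70321 untreated, 52206, 64598 and 54449.6 at 6 h, and 77208, 71363 and 66922 at 16 h. Again all 16 h values lay above all 6 h values, by a mean of 0.49 ± 0.16 (SE, adjusted p = 0.244 by limma). BUB1, a kinase of the spindle checkpoint, had 9502 untreated, 5171, 6741 and 5611 at 6 h, and 7225, 9858 and 10526 at 16 h. Its mean difference was 0.68 ± 0.16 (SE, adjusted p = 0.203 by limma), and with IFN-α it stayed under untreated at both times.

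BIRC5, which encodes survivin of the chromosomal passenger complex, had 11403 untreated, 7547, 10850.1 and 9133 at 6 h, and 10098, 12503 and 11554 at 16 h, a mean difference of 16 h from 6 h of 0.39 ± 0.15 (SE, adjusted p = 0.304 by limma). Of its 2 other probes, 1 differed in the same direction with all 3 interferons (0.76, 0.72 and 0.84) and 1 in the opposite direction (-0.12, -0.45 and -0.61). CDK1, BUB1, TOP2A and BIRC5 were higher at 16 h than at 6 h with all 3 interferons under both scalings, and the first 3 were also free of overlap between times under both.

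**Figure D3:**
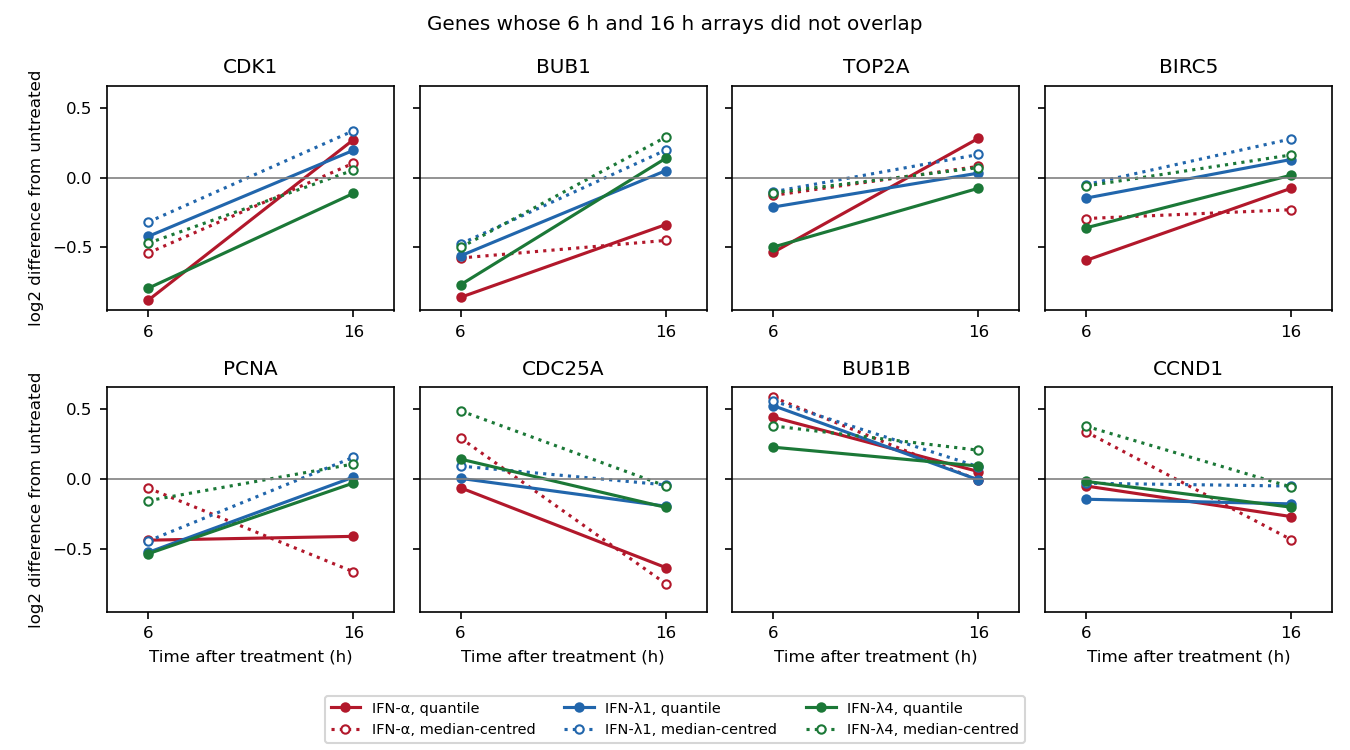
Log2 difference from untreated (vertical axis) at 6 h and 16 h (horizontal axis) for 8 of the genes whose 6 h and 16 h arrays did not overlap under quantile scaling. Solid lines are quantile scaled and dotted lines median-centred, 1 line for each interferon. CDK1, BUB1, TOP2A and BIRC5 slope upward in every line, PCNA turns downward with IFN-α under median centring, and CDC25A, BUB1B and CCND1 slope downward.

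Over the whole list, 11 of 40 members were higher at 16 h than at 6 h with all 3 interferons (14.6% of all genes) and 9 were lower with all 3 (24.1%). Beside those already given, CCNA2, CCNB2, CCNE1, CDC25C, CDKN1B and MKI67 were higher, and BUB1B, CCNE2, CDC6, CDK6, FOXM1, RRM2 and TYMS were among the lower. After quantile scaling, all 16 h arrays lay above all 6 h arrays for 6 members (BIRC5, BUB1, CCNB2, CDK1, PCNA and TOP2A, or 15% against 6.13% of all genes). They lay below them for 4 (BUB1B, CCND1, CCNE2 and CDC25A, or 10% against 13.6%). The deposited intensities of BIRC5, CCNB2 and PCNA overlapped between the times. For CCNE2 and CDC25A a second probe read the other way, and the second bright RRM2 probe was higher at 16 h with both IFN-λ proteins. Under median centring 4 members were higher with all 3 interferons (8.97% of all genes) and 17 were lower (32.4%), and the arrays of the 2 times lay apart upward for 3 members (2.94%) and downward for 11 (20.6%).

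Within single interferons, 2-fold differences between the times were few. With IFN-α, CDK1 was 2-fold higher at 16 h than at 6 h (4.33% of all genes), and CCND3 and CDKN1A were 2-fold lower (3.97%). Median centring instead gave 0 higher and 9 lower there, where 10.2% of all genes were lower. With IFN-λ1 none was higher (0.499%) and RRM2 was lower (0.538%), and with IFN-λ4 none was higher (1.6%) or lower (1.03%).

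Without the 2 IFN-α arrays, 6 members passed the limma test of 16 h against 6 h. BUB1, CDK1, PCNA and TOP2A rose (9.23% of all genes rose) and RRM2 and CDK2 fell (11.6% fell). In both directions together 15% of members passed, fewer than the 20.9% of all genes. BUB1 differed by 0.76 ± 0.13 (SE, adjusted p = 0.00586 by limma) and CDK1 by 0.65 ± 0.11 (adjusted p = 0.00628 by limma). Of these, BUB1 and CDK1 rose (7.07% of all genes rose) and RRM2 and CDK2 fell (11.8% fell) with median centring as well. The fit over 4 arrays leaves 1 residual degree of freedom, so its errors come mostly from the spread of all genes. RRM2 there rests on the probe described above, and its second bright probe was higher at 16 h with both IFN-λ proteins.

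Of 7 housekeeping genes above the dim level, GAPDH had the largest difference between the times. GAPDH, an enzyme of glycolysis, differed from untreated by -1.58, -0.45 and -0.41 at 6 h with IFN-α, IFN-λ1 and IFN-λ4 and by 0.04, 0.14 and 0.14 at 16 h. Its mean difference of 16 h from 6 h was 0.92 ± 0.23 (SE, adjusted p = 0.203 by limma), whereas that of YWHAZ was -0.34, that of B2M 0.28, and those of TBP, HPRT1, PPIA and GUSB lay between -0.04 and 0.02. The IFN-α and IFN-λ4 6 h arrays, on which CDK1, BUB1 and TOP2A were lowest, were also the 2 with the lowest median intensity. The part of these array properties in the difference between times was not tested.

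The promoters of CDK1, TOP2A and BUB1 are shown, chosen from the members with a promoter window. Each of these genes was higher at 16 h than at 6 h at an unadjusted p under 0.05 by limma. BUB1B and CDC25A, which separated the times downward under both scalings, are not shown. The sequences are RefSeq windows of GRCh38.p14, from 250 bases before to 50 after the annotated start. Each is written 5′ to 3′ on the strand of the gene. The windows are chr10:60778081-60778380 on the plus strand for CDK1, chr17:40417847-40418146 on the minus strand for TOP2A and chr2:110678014-110678313 on the minus strand for BUB1. Capitals mark letters of an E2F-type motif, of the CHR (cell cycle genes homology region) motif TTTGAA or of the CCAAT box, on either strand.
CDK1: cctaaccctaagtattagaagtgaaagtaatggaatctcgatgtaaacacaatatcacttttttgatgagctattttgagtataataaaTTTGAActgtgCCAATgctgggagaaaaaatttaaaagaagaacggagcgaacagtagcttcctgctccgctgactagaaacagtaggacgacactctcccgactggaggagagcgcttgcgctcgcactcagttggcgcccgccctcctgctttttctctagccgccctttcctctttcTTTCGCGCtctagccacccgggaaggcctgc
TOP2A: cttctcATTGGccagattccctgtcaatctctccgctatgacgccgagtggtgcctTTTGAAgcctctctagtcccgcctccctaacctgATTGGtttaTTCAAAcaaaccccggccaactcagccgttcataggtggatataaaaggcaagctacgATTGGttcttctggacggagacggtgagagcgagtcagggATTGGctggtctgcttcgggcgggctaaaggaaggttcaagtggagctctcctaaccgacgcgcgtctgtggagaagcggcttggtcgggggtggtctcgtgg
BUB1: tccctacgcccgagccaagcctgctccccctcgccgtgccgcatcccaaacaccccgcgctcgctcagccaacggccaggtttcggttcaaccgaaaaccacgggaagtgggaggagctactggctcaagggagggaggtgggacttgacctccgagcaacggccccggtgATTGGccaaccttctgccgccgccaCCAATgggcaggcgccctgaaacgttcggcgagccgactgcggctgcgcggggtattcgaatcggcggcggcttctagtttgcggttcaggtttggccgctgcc

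In these windows CDK1 held 1 CHR motif, 1 CCAAT box and 1 E2F-type motif, TOP2A 2 CHR motifs and 4 CCAAT boxes, and BUB1 2 CCAAT boxes. Of the 40 members 30 had a window in the RefSeq table of 27305 promoters. An E2F-type motif (TTTCCCGC, TTTGGCGC, TTTCGCGC or TTTGGCGG on either strand, which can overlap one another) occurred in 11 of the 30, or 36.7%, against 3.43% of all promoters. The CHR motif occurred in 8 (26.7% against 15.4%), the CCAAT box in 20 (66.7% against 35.7%) and the SP1-type motif GGGCGG in 24 (80% against 44.6%). A match is a run of letters and was not tested as a binding site.

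The remaining genes of S phase, G2 and mitotic entry held 1 member that was lower on every treated array under both scalings, CCNA2, which encodes cyclin A2. The probe used had 17178 untreated and 9224 to 12429 on the treated arrays, lowest with IFN-α at 6 h, and its mean difference from untreated was -0.62 ± 0.23 (SE, adjusted p = 0.999 by limma). Its second probe was not lower throughout, at 11299 untreated and 8746 to 13762 treated. MKI67, the gene of the Ki-67 proliferation antigen, differed by -0.43 to 0.01. CCNB1 (cyclin B1) differed by -0.18 to 0.32, CCNB2 (cyclin B2) by -0.25 to 0.08, CDC25C by -0.25 to 0.02, and the mitotic kinase PLK1 by -0.41 to 0.33. AURKA, another mitotic kinase, lay at 0.09, 0.20 and 0.06 at 6 h and at 0.18, 0.04 and 0.00 at 16 h.

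FOXM1, a transcription factor of G2 and mitotic genes, had the smallest adjusted p of any member for IFN-λ against IFN-α. Its intensity was 8252 untreated, 5604, 8926 and 8394 at 6 h, and 4489.5, 6544 and 6739.9 at 16 h with IFN-α, IFN-λ1 and IFN-λ4. Both IFN-α arrays lay under all others, and the log2 difference of IFN-λ from IFN-α was 0.54 ± 0.15 (SE, adjusted p = 0.0967 by limma), 0.61 ± 0.19 under median centring (adjusted p = 0.143). After quantile scaling, CDC6, FOXM1 and MCM5 were the 3 members with both IFN-α arrays under all 4 IFN-λ arrays (12.3% of all genes). CDK6 and TYMS were the 2 with both above (10.8%), although the deposited TYMS intensities overlapped. Under median centring 5 members had both IFN-α arrays below (12.6%), among them CDC6 and FOXM1, and CDK6 alone had both above (8.01%).

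**Figure D4:**
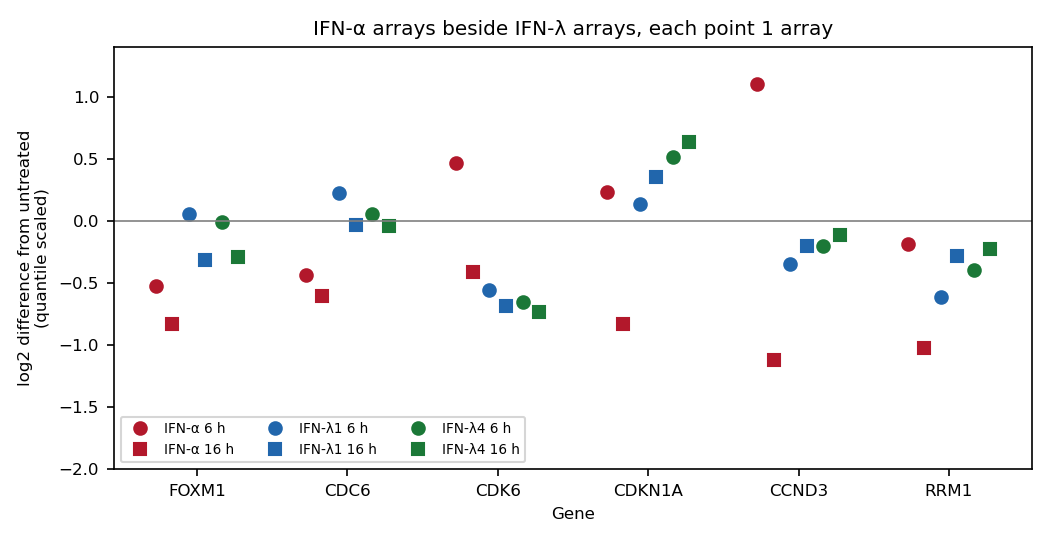
Log2 difference from untreated, quantile scaled, of 6 genes (horizontal axis), with IFN-α in red, IFN-λ1 in blue and IFN-λ4 in green, circles for 6 h and squares for 16 h, 1 point an array. FOXM1 and CDC6 have both red points under all others, CDK6 has both above, and for CDKN1A, CCND3 and RRM1 the 16 h IFN-α square is the lowest point.

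Among genes of the spindle checkpoint and mitotic exit, AURKB, the kinase of the chromosomal passenger complex, was above untreated on all 6 treated arrays, by 0.12 to 0.48 (mean 0.37 ± 0.20, SE, adjusted p = 0.999 by limma). Its second probe read from -0.50 to 0.40. BUB1B, which encodes the checkpoint protein BUBR1, was 0.44, 0.52 and 0.23 above untreated at 6 h and within -0.01 and 0.09 at 16 h, the reverse order in time of BUB1. CDC20, an activator of the anaphase-promoting complex, differed by -0.04, 0.28 and 0.13 at 6 h and by 0.13, 0.03 and 0.09 at 16 h. UBE2C, the ubiquitin-conjugating enzyme that works with that complex, differed by 0.01, 0.28 and 0.14 at 6 h and by 0.16, -0.13 and -0.04 at 16 h. TTK, a checkpoint kinase, stayed within -0.15 and 0.13 on the probe used, and a dimmer second probe read -0.67, -0.40 and -0.76 at 6 h and -0.27, 0.15 and -0.11 at 16 h.

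Probes of 1 gene often disagreed about time. Several probes were present for 12 members and 1 probe for 28, and in 10 of the 12 the probes fell on both sides of 0 in the mean difference of 16 h from 6 h. These 10 include genes whose second probe was dim or whose differences were small. Both CDK1 probes were higher at 16 h with every interferon, whereas the CDKN1A probes differed in sign on the IFN-α 16 h array.

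**Figure D5:**
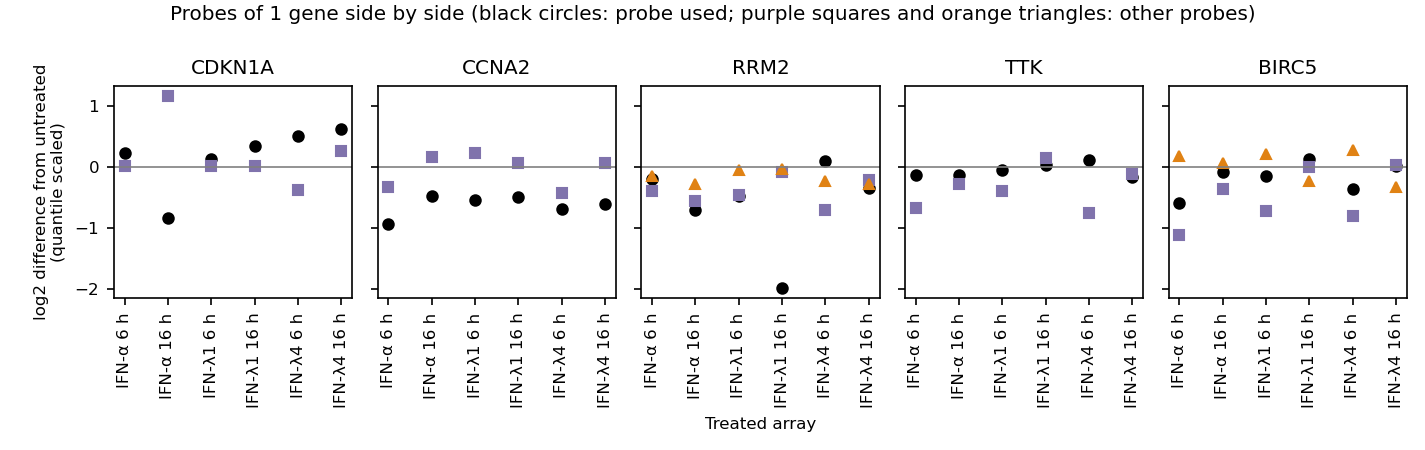
Log2 difference from untreated, quantile scaled, for every probe of 5 genes on the 6 treated arrays, with the probe used as black circles and other probes as purple squares or orange triangles. The CDKN1A probes part on the IFN-α 16 h array and the 2 bright RRM2 probes (black and purple) part on the IFN-λ1 16 h array, while the purple TTK and BIRC5 probes are lowest on 6 h arrays.

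Further genes of the same processes, in 5 lists that do not overlap the 40, gave few calls. Of 43 other replication genes above the dim level, 0 passed for treated against untreated or for 16 h against 6 h, and for IFN-λ against IFN-α GINS1, a subunit of the replicative helicase, passed as higher and RPA3, a subunit of the single-strand binding protein, as lower. GINS1 had 1102 untreated, 151, 556 and 254 at 6 h and 364, 875 and 723 at 16 h, a difference of IFN-λ from IFN-α of 1.28 ± 0.26 (SE, adjusted p = 0.0486 by limma). RPA3 had 258 untreated, 1016 and 2030.0 with IFN-α, and 239 to 322 with the IFN-λ proteins, a difference of -2.39 ± 0.21 (SE, adjusted p = 0.0043 by limma). The untreated and both IFN-λ4 values of RPA3 lay under the dim level of 265. So did the GINS1 values at 6 h with IFN-α and IFN-λ4, and the size of both differences is therefore uncertain.

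Of 21 other G1 brakes and p53 targets, GADD45B, a stress-induced growth arrest gene, was lower with IFN-λ than with IFN-α by -1.60 ± 0.18 (SE, adjusted p = 0.0124 by limma) and SFN (14-3-3 sigma) was higher by 1.27 ± 0.21 (SE, adjusted p = 0.0278 by limma). None of 56 other mitotic genes, 18 regulators of the RB, E2F and DREAM pathway or 22 genes of the replication checkpoint and repair passed in any of the 4 comparisons. Between the times, 7 of the 43 replication genes were higher at 16 h with all 3 interferons and 13 lower, 16 and 9 of the 56 mitotic genes, 4 and 3 of the 18 RB, E2F and DREAM regulators, 3 and 9 of the 21 G1 brakes and 6 and 10 of the 22 checkpoint genes, beside 14.6% and 24.1% of all genes.

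Of the genes named in these lists for the size of their mean difference from untreated, MYBL2, a transcription factor of the MuvB complex, had 9578 untreated, 3310.0, 5498 and 4317 at 6 h and 7524, 6830.4 and 8271 at 16 h. Its values at 6 h lay under those at 16 h, as for CDK1, with a mean difference of 0.84 ± 0.20 (SE, adjusted p = 0.203 by limma). NCAPH (condensin), CKAP2 (a spindle protein) and LIN52 (MuvB) also had every 6 h array under every 16 h array, as had 6.13% of all genes, with mean differences of 0.55, 0.62 and 0.62, although CKAP2 overlapped between times under median centring.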

How the data were processed

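The deposited values are linear Cy5 intensities, 1 column for each of 7 arrays and 31741 probes, scaled by the authors in a way not given in the sources used here. Per the labels' protocols, amplified RNA carried the Cy5 label. Values under 1 were set to 1, taken to log2 and quantile normalised over all probes, with median centring, the scaling as deposited and other probe rules as alternatives. A probe was used where the platform table gave 1 symbol (24740 probes, with 977 giving several and 6024 none), and 1948 symbols were updated through the RefSeq gene table. Genes at or under the 30th percentile of mean log2 value were left out of the fits.

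Fits used limma 3.58.1 in R 4.3.3 with a variance trend and Benjamini-Hochberg adjustment over 12835 genes at 0.05, and were tested on simulated data. Treated against untreated used all 7 arrays (5 residual degrees of freedom), and the other comparisons the 6 treated arrays with interferon or time as a block. The small number of arrays limits the precision. The 40 genes and the other lists were chosen with earlier results of these data known. Every array value is given for members past 2-fold on an array, the 2 brightest of each role, the 5 largest and 5 smallest differences between times, and CDKN1A, CDKN1B, CCND1 and E2F1. FOXM1, CDC6 and CCNA2 fall outside that rule and were picked once their values were known.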

Additional observations from a re-analysis of the deposited data

Results flagged for a closer look

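CCND3 and CDKN1A differed between the times in opposite directions with IFN-α and with the IFN-λ proteins. For CCND3 the log2 difference of 16 h from 6 h was -2.22 with IFN-α, 0.15 with IFN-λ1 and 0.09 with IFN-λ4. For CDKN1A it was -1.06 with IFN-α, 0.22 with IFN-λ1 and 0.12 with IFN-λ4, on the probe used. Each value compares 1 array with 1 array, and the difference between interferons was not tested. CCND3 has 1 probe, and the second probe of CDKN1A gave 1.16 with IFN-α.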

How the results depend on the processing

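No analysis paired by replicate number was possible because no condition was repeated. Dropping the blocks on interferon or time called 0 members, as with them. No member passed for treated against untreated or for IFN-λ4 against IFN-λ1 under any alternative run. Leaving out 1 array or 1 interferon at a time gave 0 to 7 members called for 16 h against 6 h and 0 to 3 for IFN-λ against IFN-α, the highest counts without an IFN-α array, where 20.9% and 14.9% of all genes were called. Median centring without both IFN-α arrays, chosen after seeing the data, called 4 for 16 h against 6 h, or 10% of members against 18.9% of all genes. CCND3 for IFN-λ against IFN-α reversed, from -0.21 to 0.96 without the IFN-α 6 h array, with -1.38 without the IFN-α 16 h array.

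Median centring moved the members' median to 0.28 on the IFN-α 6 h array, 0.27 on the IFN-λ4 6 h array and -0.53 for 16 h against 6 h with IFN-α, where it put 9 members past 2-fold. The mean over all probes gave 2 members past 2-fold at 6 h with IFN-α, 1 for its 16 h against 6 h, and 0 for IFN-λ1 at 16 h and for its 16 h against 6 h. The probe with the highest mean log2 value, added after seeing the data, also gave 0 for both IFN-λ1 comparisons. At 1.5-fold the counts at 6 h and 16 h were 6 and 9 for IFN-α, 1 and 2 for IFN-λ1 and 4 and 3 for IFN-λ4, and 11, 3 and 3 for 16 h against 6 h. At 3-fold they were 0 on both IFN-α arrays, 1 for IFN-α between times and 0 for IFN-λ1 between times. No share of all genes is given beside the counts under these probe rules and thresholds. They show only how the counts move and are not a result about the members. Causes of these moves were not tested, except that a lower or higher threshold admits more or fewer genes by construction.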

Other observations

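Several further cell cycle genes stood apart on the IFN-α arrays. LIN37, a MuvB subunit, had an intensity of 2627 untreated, 4309 and 10645 with IFN-α at 6 h and 16 h, and 2549 to 3580.1 with the IFN-λ proteins, a difference of IFN-λ from IFN-α of -1.27 ± 0.35 (SE, adjusted p = 0.0987 by limma). E2F4, a repressor-type E2F factor, had 7611 untreated and 2058 on the IFN-α 6 h array, against 5249 to 7557 on the other 5 treated arrays. GADD45B had 4711 untreated, 35048 and 22457 with IFN-α, 10644 and 7022 for IFN-λ1, and 15360.1 and 7666 for IFN-λ4 at 6 h and 16 h, above untreated on all 6. CDKN2C, the CDK inhibitor p18, and BARD1, the partner of BRCA1, were highest on the IFN-α 16 h array, at 7497 against 3398 untreated and at 7187 against 3526 untreated. All 5 were named by the size of their mean difference between treated and untreated cells, and each array was measured once.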
